A study of Mus musculus with 28 samples.

Results

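Macrophages of the recovering pancreas were compared with macrophages of the group NC after 3 days of recovery with lactate. The comparison took the 4 libraries labelled D3 AP+Lac and the 3 labelled NC, 7 of the 28 RNA-seq libraries of the series, chosen by their labels alone. All libraries came from macrophages sorted by flow cytometry out of pancreas tissue, the mice were wild-type C57BL/6J, and the series describes the mice as treated with caerulein, an analogue of cholecystokinin that overstimulates acinar cells and causes acute pancreatitis (AP). D3 AP+Lac stood for day 3 of the recovery model with lactate, D3 AP+PBS (4 libraries) for day 3 with phosphate-buffered saline in its place, and D0 (5 libraries) for day 0. The day 1 groups had 6 libraries each. The labels do not spell out NC or say whether its mice received caerulein. The sources used here do not give the dose and route of lactate, the sort markers, or the age and number of mice behind a library. Since no label ties each library to its own mouse, p-values measure only the spread between these libraries, which may be technical.

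The pancreas holds macrophages that settle early in life and renew themselves in place, marked by LYVE1, TIM4 (Timd4), FOLR2 and CD163. Injury draws blood monocytes into the tissue, where they become macrophages that clear dead cells and pass from an inflammatory to a reparative state. Interleukin 4 and interleukin 13 drive the alternative activation genes, such as Retnla, Mrc1 and Arg1, and lactate, the end product of glycolysis, is known as a signal that can raise Arg1 in macrophages.

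Every library held RNA of macrophages and of other cells. The 12 macrophage markers, among them Adgre1 (F4/80), Csf1r and Cd68, were all above 0 in each group. Their mean log2(FPKM + 1), FPKM being fragment counts scaled by transcript length and library size, spanned 8.58 to 8.76 in NC and 7.61 to 8.48 in D3 AP+Lac, where libraries 1 (7.69) and 4 (7.61) were lowest. The 22 acinar cell markers spanned 7.09 to 7.72 in NC, 4.10 to 6.84 in D3 AP+Lac and 5.96 to 8.59 in D3 AP+PBS. T and NK cell markers were higher in every D3 AP+Lac library (4.42 to 4.98) than in NC (3.17 to 3.67), and so were B and plasma cell markers (5.11 to 6.47 against 4.61 to 4.83), fibroblast markers (2.53 to 3.64 against 1.72 to 2.10) and markers of mast cells, basophils and eosinophils (1.27 to 2.47 against 0.44 to 0.59). Recovered sequencing depth lay between 36633038 and 38068953 fragments in NC and between 36851594 and 37866300 in D3 AP+Lac.

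**Figure D1:**
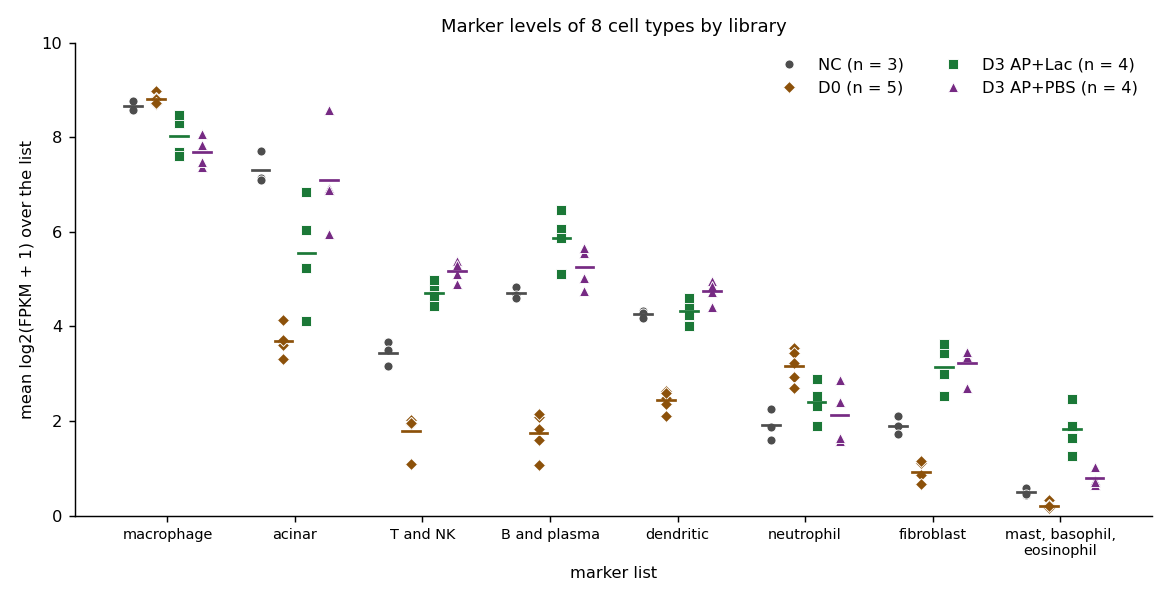
Mean log2(FPKM + 1) of 8 marker lists on the y axis for each library of NC, D0, D3 AP+Lac and D3 AP+PBS, with horizontal bars at the group means. Macrophage markers were highest of the 8 lists in most libraries, and the 4 D3 AP+Lac libraries lay above the 3 NC libraries for T and NK, B and plasma, fibroblast and mast cell markers.

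After 3 days of recovery with lactate, 739 of 11960 genes tested (6.18%) were higher than in NC and 897 (7.5%) were lower, at an adjusted p under 0.05 (limma on log2(FPKM + 1), two-sided, Benjamini-Hochberg adjustment over all genes tested). These genes are said to have risen or fallen below, and a fold change is a difference of mean log2(FPKM + 1). The median over all genes tested was 0.09. Of the called genes averaging 5 FPKM or more in either group, the 12 with the lowest fold changes included genes of resident and alternatively activated macrophages, Ccn1, a secreted matrix protein induced early by stress, and acinar enzymes. The 12 with the highest included Arg1, Saa3, Gzmb, Mcpt4, Cpa3, Prss1 and Gzma, in that order. The counts rested on single libraries. Genes higher came to 253, 346 and 145 without NC 1, 2 and 3, and to 219, 1574 and 326 without D3 AP+Lac 1, 3 and 4, and genes lower to 592 and 468 without NC 1 and NC 3 and 587 without D3 AP+Lac 1. Without D3 AP+Lac 1 and 4 together, left out for their low macrophage markers in a setting chosen after seeing the data, 82 genes were higher and 357 lower. Median-ratio scaling, which lowers the median of all genes by about that 0.09, gave 515 higher and 1109 lower, so that 31.7% of calls were higher in place of 45.2%.

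**Figure D2:**
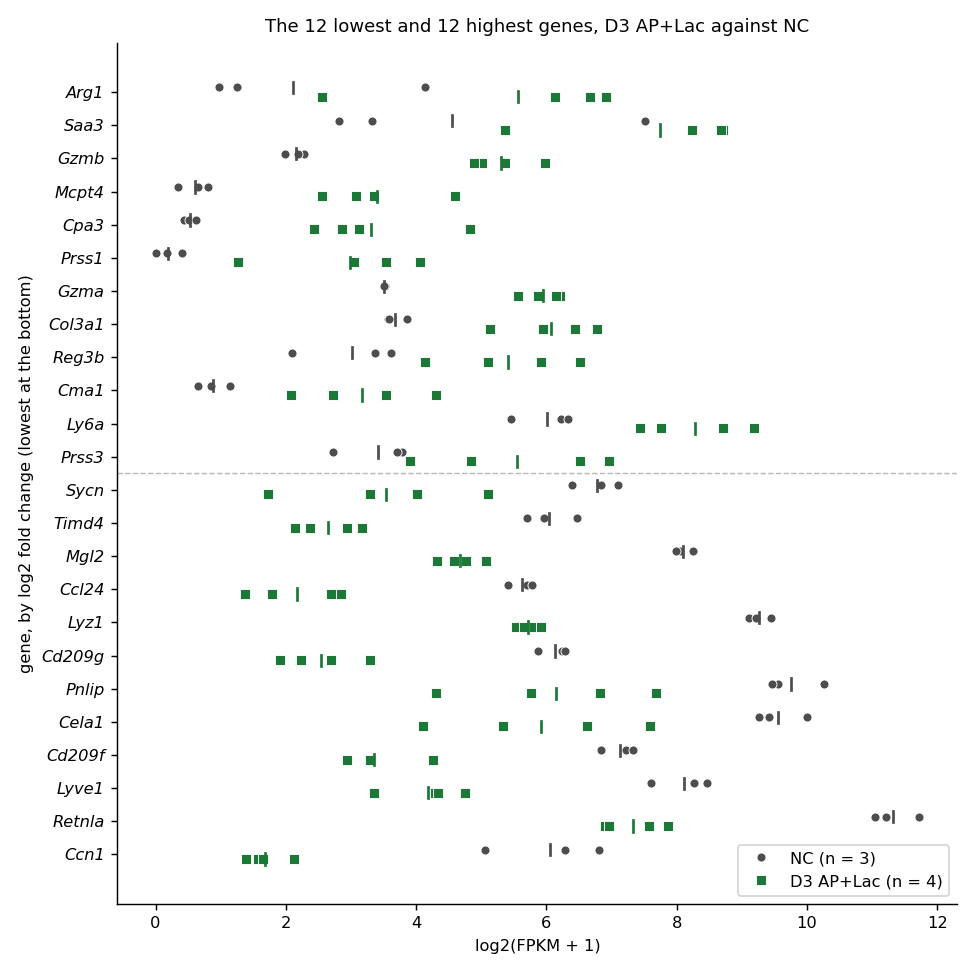
Values of log2(FPKM + 1) on the x axis for the 12 genes with the lowest and the 12 with the highest log2 fold change among called genes that averaged 5 FPKM or more in NC or D3 AP+Lac, with points for the 3 NC and 4 D3 AP+Lac libraries and bars at their means. The groups do not overlap for any gene shown other than Arg1 and Saa3.

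**Figure D3:**
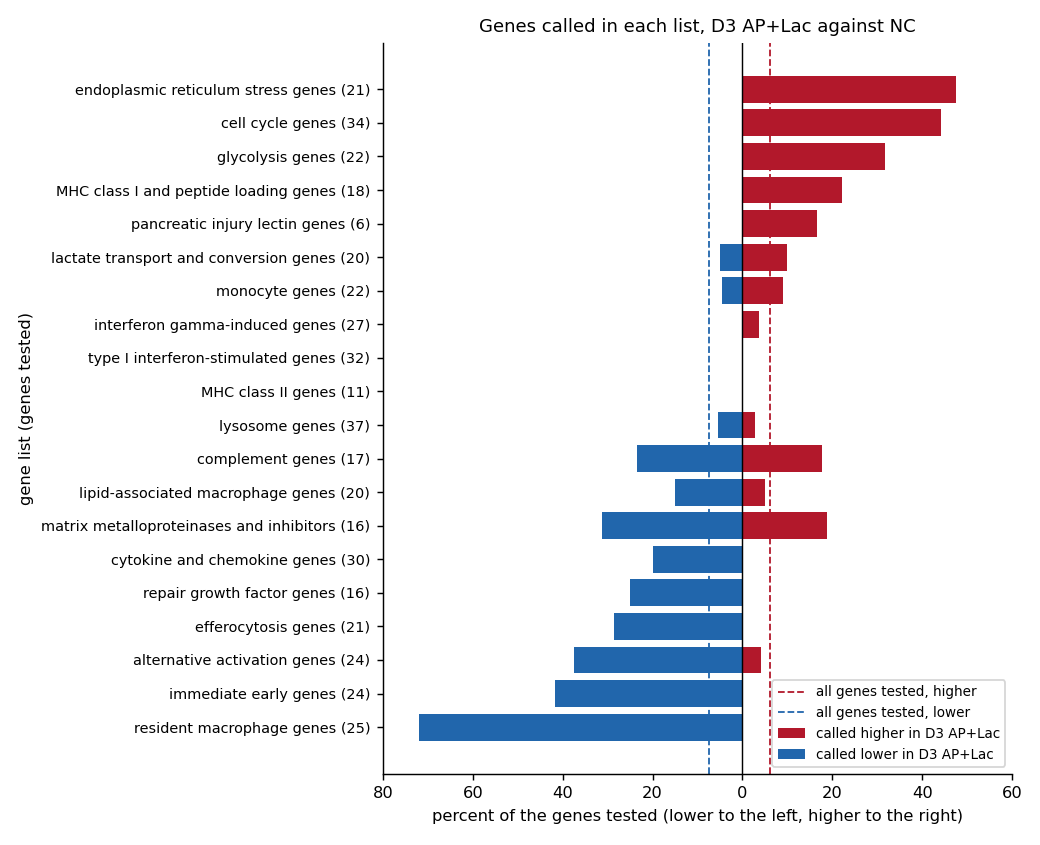
Percent of the genes tested in each of 20 lists that were called higher (right) or lower (left) in D3 AP+Lac against NC, with the number tested beside each name and dashed lines at 6.18% higher and 7.5% lower for all genes. Resident macrophage, immediate early and alternative activation genes reach furthest to the left, and endoplasmic reticulum stress and cell cycle genes furthest to the right.

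Genes of resident macrophages were lower with few exceptions. Of 25 tested, 18 fell and none rose, against 7.5% of all genes lower, and the median of the list was -1.64 on the log2 scale. Lyve1, the hyaluronan receptor of perivascular resident macrophages, stood at 307, 195 and 354 FPKM in the 3 NC libraries and at 18.7, 19.1, 25.97 and 9.20 in the 4 D3 AP+Lac libraries. Every D3 AP+Lac library was below the lowest NC library, and the log2 fold change was -3.93 (SE 0.41, adjusted p = 1.4e-07). Timd4, a receptor for phosphatidylserine on dying cells, gave 61.4, 51.2 and 87.9 in NC and 6.65, 4.18, 7.96 and 3.42 with lactate, a fall of 3.39 on the log2 scale (SE 0.27, adjusted p = 2.4e-09). Cd163, the haemoglobin scavenger receptor, had 334, 226 and 372 FPKM in NC against 20.3, 46.7, 33.4 and 31.3, 10.6% of the NC mean (log2 fold change -3.23, SE 0.47, adjusted p = 2.9e-05). The groups did not overlap for any of these 3 genes.

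The C-type lectins of the Cd209 family, which bind sugars on microbes, fell too. Cd209f went from 140.2 ± 24.1 FPKM (SD, n = 3) in NC to 10.1 ± 5.51 (SD, n = 4), and Cd209g from 69.6 ± 10.7 to 5.19 ± 2.65, with log2 fold changes of -3.77 (SE 0.38, adjusted p = 1.1e-07) and -3.60 (SE 0.31, adjusted p = 7e-09). Cd209d had a smaller fall (log2 fold change -1.84, adjusted p = 3.2e-05). These genes are close copies, and the sources used here do not say how the counting divided reads among them. Folr2, F13a1, Cbr2, Gas6, Fcna, Stab1, Maf, Fxyd2 and Ninj1 were further resident genes that fell. The fall of the list did not hang on 1 library: 15 to 19 of the 25 genes fell when any single library was left out (with 1 higher without NC 2, D3 AP+Lac 3 or D3 AP+Lac 4), and 12 without D3 AP+Lac 1 and 4. With the lymphocyte level (the T, NK, B and plasma cell markers together) as a covariate 13 fell. That level was higher in every D3 AP+Lac library than in NC, so this fit cannot separate it from the group. Of 12 general macrophage markers, 2 fell, among them Csf1r, the receptor for the macrophage growth factors CSF1 and IL-34 (log2 fold change -1.03, SE 0.20, adjusted p = 0.0013), and the list's median was -0.68. Without D3 AP+Lac 2 or 3 the falls numbered 4, and Csf1r lost its call with the lymphocyte level as a covariate (adjusted p = 0.084). Adgre1, Cd68 and C1qa had 212 ± 70.6, 277 ± 51.1 and 748 ± 260.3 FPKM with lactate against 326 ± 67.2, 379.5 ± 28.1 and 1384 ± 179 in NC, and none of these 3 passed the test (adjusted p = 0.086, 0.15 and 0.055). C1qa passed without D3 AP+Lac 2 (adjusted p = 0.042) or 3 (0.03), and Adgre1 without D3 AP+Lac 3 (0.041). With lactate 16.7% of the 12 macrophage markers fell, against 7.5% of all genes. In D3 AP+PBS, 10 of the 12 were lower than NC, where 10.9% of all genes were. None of the 12 passed between the day 3 arms in limma (3 higher and 0 lower with lactate at an unadjusted p under 0.05). In bulk libraries, fewer cells of a type and less RNA per cell cannot be told apart.

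Alternative activation genes moved both ways. Of 24 tested, 9 fell and 1, Arg1, rose (median -0.69). Of the falls, Mrc1 and Ccl24 were also counted among the resident genes. The shares were 37.5% lower and 4.17% higher, against 7.5% and 6.18% of all genes. Retnla encodes RELM-alpha, a secreted protein of macrophages exposed to interleukin 4. It stood at 2375, 3386 and 2108 FPKM in NC and at 118, 189, 234 and 124 in D3 AP+Lac, so every lactate library held less than the lowest NC library and the mean was 6.34% of NC (log2 fold change -4.0, SE 0.41, adjusted p = 1.1e-07). The level was lower still at day 0, 5.62 to 20.5 FPKM, and from there to day 3 with lactate it rose by 3.63 on the log2 scale (adjusted p = 8.9e-09). The 250 bases before the start of Retnla are shown because this gene had the largest fall of the list. They lie on the plus strand at chr16:48842359-48842608 of GRCm38.p6 (RefSeq), and capitals mark the letters TTCNNNNGAA, the spacing that STAT6, the factor activated by interleukin 4, is known to bind.
Retnla: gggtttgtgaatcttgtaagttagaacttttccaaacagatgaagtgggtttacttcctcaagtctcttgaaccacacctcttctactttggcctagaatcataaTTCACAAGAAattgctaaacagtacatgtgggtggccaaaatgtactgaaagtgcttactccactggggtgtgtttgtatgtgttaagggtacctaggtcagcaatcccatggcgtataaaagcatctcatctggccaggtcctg
The marked letters begin 145 bases before the start. In windows of 300 bases (250 before to 50 after each start, both strands searched), 5 of 16 matched genes of the list (31.25%) held TTCNNNNGAA, against 8.007% of 27025 genes. The 5 were Retnla, Ccl17, Pdcd1lg2, Cd36 and Clec7a, of which Retnla, Ccl17 and Cd36 fell.

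Mgl2, a galactose-binding lectin, and Ear2, a ribonuclease, fell with Retnla with log2 fold changes of -3.41 (SE 0.30, adjusted p = 9.8e-09) and -2.62 (SE 0.30, adjusted p = 6.8e-07). Mgl2 stood at 266, 252 and 302 FPKM in NC and 22.8, 26.2, 32.6 and 18.9 with lactate. Mrc1, the mannose receptor CD206, had 379, 353 and 541 FPKM in NC and 84.5, 172, 202 and 107 with lactate, without overlap (log2 fold change -1.64, SE 0.34, adjusted p = 0.002), and lost its call with the lymphocyte level as a covariate (adjusted p = 0.086). Arg1 went the other way. This enzyme, which splits arginine into ornithine and urea, stood at 1.37, 16.6 and 0.958 FPKM in NC and at 100.5, 69.2, 120.03 and 4.88 in D3 AP+Lac. D3 AP+Lac 4 lay below NC 2, so the groups overlapped, while the other 3 lactate libraries were above all of NC. The log2 fold change was 3.45 (SE 0.81, adjusted p = 0.0062), and it did not pass the test without NC 3 (adjusted p = 0.068), while 2 genes of the list rose without D3 AP+Lac 2 or 4. Its day 0 libraries held 351 to 974 FPKM. Chil3, the chitinase-like protein Ym1, overlapped between the groups, at 37.8 to 88.2 FPKM in NC and 38.98 to 144 with lactate (log2 fold change 0.24, adjusted p = 0.7), and its sign turned without NC 1 (-0.10) or D3 AP+Lac 3 (-0.08).

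**Figure D4:**
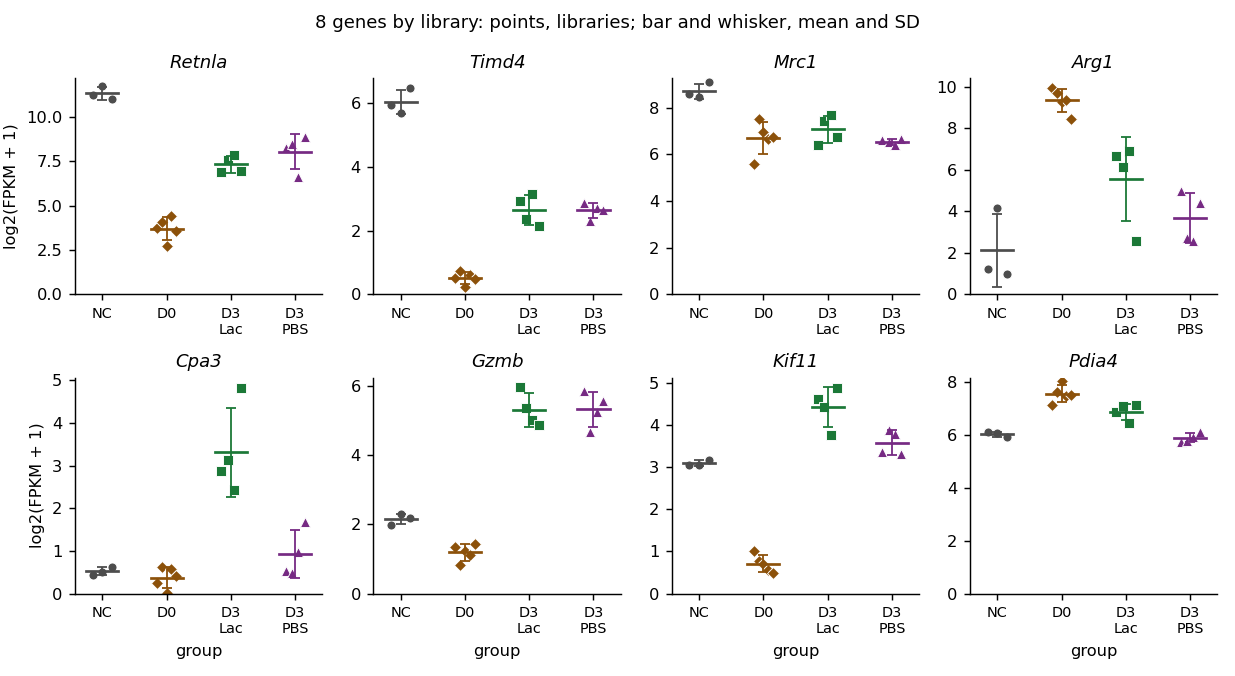
Values of log2(FPKM + 1) on the y axes for 8 genes in NC (3 libraries), D0 (5), D3 AP+Lac (4) and D3 AP+PBS (4), with points for libraries and bars and whiskers for the mean and SD. Retnla, Timd4 and Mrc1 lay below NC in every D0 and day 3 library, Arg1 was highest at D0, and the Cpa3 and Pdia4 values of D3 AP+Lac lay above those of both NC and D3 AP+PBS.

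Genes for the uptake of dying cells were lower in part. Of 21 efferocytosis genes tested, 6 fell and none rose (2 were higher and 10 lower at an unadjusted p under 0.05). That was 28.57% lower, against 7.5% of all genes lower and 6.18% higher. The 6 were Timd4 and Stab1, receptors for phosphatidylserine, Gas6 and Pros1, the ligands that bridge dying cells to the TAM receptors, Dock1, and the scavenger receptor Cd36. Of these, Timd4, Stab1 and Gas6 were also counted among the falls of resident genes, and Cd36 among those of alternative activation. Gas6 stood at 198, 179.6 and 257 FPKM in NC and 33.1, 64.4, 68.4 and 46.5 with lactate, without overlap (log2 fold change -2.01, SE 0.31, adjusted p = 8.4e-05). Pros1 fell by 1.15 (adjusted p = 0.0007) and Cd36 by 2.17 (adjusted p = 1.4e-06). Among 20 genes of lipid-associated macrophages, Lpl, Cd36 and Cd63 fell and Abcg1, a cholesterol exporter, rose (log2 fold change 0.94, adjusted p = 0.038), 15% lower and 5% higher against 7.5% and 6.18% of all genes, and the median was 0.07. Of these, Cd36 held its call without each library, while Lpl lost it without NC 2 or 3 or D3 AP+Lac 1 or 4 (adjusted p = 0.13, 0.096, 0.1 and 0.1). Cd63 and Abcg1 lost their calls without NC 1 (adjusted p = 0.077 and 0.077), NC 2 (0.068 and 0.056), NC 3 (0.13 and 0.18) or D3 AP+Lac 1 (0.13 and 0.069), Cd63 also without D3 AP+Lac 4 (0.076), and Abcg1 without D3 AP+Lac 2 (0.075) or 3 (0.063). The lysosome list, at 37 genes, had 1 rise (Ppt1) and 2 falls (Cd63, Tpp1), shares below those of all genes, and no rise without NC 1 or 2 or D3 AP+Lac 4 (3 higher at an unadjusted p under 0.05 in limma in each) and no fall without NC 1 or 3 or D3 AP+Lac 1 or 4 (4, 4, 4 and 3 lower at an unadjusted p under 0.05). Trem2, the receptor that marks lipid-associated macrophages, overlapped at 35.2 to 47.1 FPKM in NC and 21.3 to 69.5 with lactate (log2 fold change 0.06, adjusted p = 0.92), and Spp1 (osteopontin) had 11.2 ± 3.32 and 27.5 ± 9.75 (log2 fold change 1.20, adjusted p = 0.13). Spp1 had a mean of 2015 FPKM at day 0.

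Of 16 growth factor genes tested, 4 fell (Igf1, Pdgfb, Pdgfc and Bmp2) and none rose (1 was higher and 6 lower at an unadjusted p under 0.05). That was 25% lower, against 7.5% of all genes lower and 6.18% higher. Igf1 is also on the resident list. Igf1, insulin-like growth factor 1, stood at 14.8, 14.2 and 26.1 FPKM in NC and 2.73, 10.7, 6.49 and 5.90 with lactate, without overlap (log2 fold change -1.44, SE 0.32, adjusted p = 0.0037). It missed the threshold without NC 3 (adjusted p = 0.052), where 1 of the 4 fell, and 2 fell without NC 1, D3 AP+Lac 1 or D3 AP+Lac 4. Pdgfb, a platelet-derived growth factor, fell by 0.95 (adjusted p = 0.0075). Among 16 matrix metalloproteinase and inhibitor genes, Mmp9, Mmp13, Timp2, Adam8 and Plau fell and Mmp2, Mmp14 and Timp1 rose. The shares of this list were 31.25% lower and 18.75% higher, against 7.5% and 6.18% of all genes. The rises numbered 1 without NC 1 or 2 or D3 AP+Lac 1 or 4 and 0 without NC 3 (3 higher at an unadjusted p under 0.05 in limma), and the falls 3 without NC 2 or 3 or D3 AP+Lac 1. Mmp13, a collagenase, had 6.05, 4.67 and 6.54 FPKM in NC and 0.0987, 1.27, 1.68 and 0.188 with lactate (log2 fold change -2.0, SE 0.26, adjusted p = 5.8e-06), and Mmp9, a gelatinase also carried by neutrophils, had 38.2, 58.000 and 65.4 FPKM in NC and 12.8, 20.7, 4.23 and 3.11 with lactate (log2 fold change -2.58, SE 0.52, adjusted p = 0.0014). Both kept the groups apart. Timp1, an inhibitor of these enzymes, was at 0.368, 1.36 and 0.0300 FPKM in NC and 4.39, 3.48, 5.12 and 0.834 with lactate, with D3 AP+Lac 4 below NC 2 (log2 fold change 1.44, SE 0.35, adjusted p = 0.008), and lost its call without NC 3 (adjusted p = 0.083).

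Complement genes moved both ways. Of 17 tested, 4 fell, among them C2, C4b and C5ar1, and 3 rose (C3, C1ra and C1s1). The shares were 23.5% lower and 17.6% higher, against 7.5% and 6.18% of all genes. C3, the component that every complement pathway cleaves, went from 45.6, 85.6 and 57.4 FPKM in NC to 319, 217, 159.5 and 105 with lactate (log2 fold change 1.59, SE 0.36, adjusted p = 0.0048), so that the lowest lactate library lay above the highest of NC. The rises numbered 1 without NC 1, 2 or 3 or D3 AP+Lac 1 or 2, and the falls 7 without D3 AP+Lac 2. C3 lost its call with the lymphocyte level as a covariate (adjusted p = 0.095). C1ra and C1s1 are also made by fibroblasts, whose markers were higher in these libraries, and the part of those cells in their rise was not tested.

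Immediate early genes, switched on within minutes of a stimulus or of tissue handling, were lower with lactate in part. Of 24 tested, 10 fell (Fos, Jun, Jund, Egr1, Ier2, Dusp1, Zfp36, Klf2, Klf4 and Ccn1) and none rose (0 higher and 15 lower at an unadjusted p under 0.05 in limma), against 7.5% of all genes lower. The other 14 did not pass, and 4 of the 24 had a log2 fold change above 0. Klf4 is also on the alternative activation list. Ccn1 had the lowest log2 fold change of all named genes: 111, 32.2 and 76.8 FPKM in NC against 1.97, 3.37, 1.63 and 2.13 with lactate (log2 fold change -4.36, SE 0.47, adjusted p = 3.6e-07). Jun, a subunit of AP-1, had 437, 407 and 509 FPKM in NC and 143, 256, 233 and 191 with lactate (log2 fold change -1.16, SE 0.20, adjusted p = 0.00039), and Klf4 fell by 1.35 (adjusted p = 0.00024). The count of falls was 4 without NC 1 or NC 3, 6 without D3 AP+Lac 1 and 5 without D3 AP+Lac 4. D3 AP+PBS had 11 lower and 1 higher of the same 24 against the same NC libraries (10.9% of all genes lower, 10.3% higher), and none of the 24 differed between the day 3 arms in limma (0 higher and 1 lower with lactate at an unadjusted p under 0.05), where 0.376% of all genes did. The sources used here do not give handling times, and their part was not tested.

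Of 30 cytokine and chemokine genes, 6 fell (Ccl2, Ccl3, Ccl9, Ccl17, Ccl24 and Pf4) and none rose (3 were higher at an unadjusted p under 0.05). That was 20% lower, against 7.5% of all genes lower and 6.18% higher. Ccl17 and Ccl24 are also on the alternative activation list, and Ccl24 is on the resident list. Ccl24, an attractant of eosinophils, stood at 51.2, 41.7 and 53.8 FPKM in NC and 1.58, 5.44, 6.21 and 2.46 with lactate, 8.02% of the NC mean (log2 fold change -3.46, SE 0.41, adjusted p = 1.8e-06). Pf4, a chemokine of platelets and resident macrophages, had 645, 537 and 829 FPKM in NC and 25.2, 88.7, 139 and 75.03 with lactate (log2 fold change -3.23, SE 0.43, adjusted p = 8.4e-06). Ccl2, the main attractant of monocytes, overlapped, with D3 AP+Lac 3 at 263 FPKM above NC 3 at 231 (log2 fold change -1.47, adjusted p = 0.01), and lost its call without NC 1 (adjusted p = 0.058). Its mean at day 0 was 1449.8 FPKM. The falls numbered 2 without NC 1, 3 without NC 2, NC 3, D3 AP+Lac 1 or D3 AP+Lac 4, and 9 without D3 AP+Lac 3, and 1 gene rose without D3 AP+Lac 2 and 2 without D3 AP+Lac 4. Il1b, which encodes the inflammatory cytokine IL-1 beta, had 131 ± 10.9 FPKM in NC and 192 ± 70.2 with lactate and did not pass the test (adjusted p = 0.46). Saa3, an acute-phase protein of macrophages, stood at 8.996, 181 and 6.03 in NC and 418, 411, 301 and 40.01 with lactate, so NC 2 lay among the lactate libraries (log2 fold change 3.2, adjusted p = 0.015). The call was lost without NC 1, NC 3 or D3 AP+Lac 1 (adjusted p = 0.097, 0.14 and 0.058). It was also lost with the lymphocyte level as a covariate and in the fit to the compared libraries alone.

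Monocyte genes were mostly not called. Of 22 tested, 2 rose, among them Ly6a, and 1, Cx3cr1, the fractalkine receptor, fell, shares near those of all genes. Ly6c2, which marks inflammatory monocytes, stood at 94.02, 106 and 40.3 FPKM in NC and 292, 109.97, 325 and 136 with lactate, did not overlap and did not pass the test (log2 fold change 1.38, adjusted p = 0.17). Ccr2, the receptor for CCL2, overlapped (log2 fold change 0.52, adjusted p = 0.14). Ly6a belongs to a family of close copies. Its 73.7, 79.9 and 42.9 FPKM in NC and 419, 173, 579.8 and 217 with lactate did not overlap (log2 fold change 2.27, SE 0.59, adjusted p = 0.012), and it lost its call without NC 3 (adjusted p = 0.086). Cx3cr1 lost its call without NC 2 (adjusted p = 0.085), NC 3 (0.19) or D3 AP+Lac 1 (0.13), 2 (0.079) or 4 (0.058).

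None of the 32 type I interferon-stimulated genes tested passed the test in limma in either direction, with 2 higher and 0 lower at an unadjusted p under 0.05. Of all genes, 6.18% were called higher and 7.5% lower. The median of the list was 0.36, and 28 of the 32 had a log2 fold change above 0. Irf7, the factor that amplifies interferon production, stood at 78.9, 69.2 and 37.8 FPKM in NC and 149, 58.8, 203 and 69.3 with lactate (log2 fold change 0.82, adjusted p = 0.43). D3 AP+Lac 1 and 3 were above all of NC, while libraries 2 and 4 lay within it. In D3 AP+PBS, 23 of the 32 were higher than the same NC libraries, where 10.3% of all genes were. Between the day 3 arms, 1 of the 32 differed, where 0.376% of all genes did. This was Ifi27l2a, lower with lactate (log2 fold change -1.41, adjusted p = 0.026, lost without D3 AP+Lac 1, 2 or 4 or D3 AP+PBS 1, 2 or 4 at 0.061 to 0.11). It had 208, 157, 321 and 155 FPKM with lactate against 614, 425, 448 and 701 with PBS and 238, 250.04 and 171 in NC. Irf7 had 528, 199, 414 and 519 with PBS, and its difference between the arms did not pass the test (log2 fold change -1.87, adjusted p = 0.15). GAAA followed by any 2 bases and GAAA again (both strands) are the core letters of the interferon-stimulated response element. The promoter windows of 14 of 23 matched genes of the full list of 35 held them (60.87%), as did those of 3.993% of all 27025 genes. The 14 include Ddx58, which has no FPKM values under that symbol and was not tested.

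Genes induced by interferon gamma gave 1 rise of 27 tested, 0 falls (12 higher and 0 lower at an unadjusted p under 0.05) and a median of 1.03. The rise was Irf8, a factor of monocyte and dendritic cell development, at 87.3, 94.1 and 93.6 FPKM in NC and 193, 157, 150.1 and 191 with lactate (log2 fold change 0.90, SE 0.12, adjusted p = 7.9e-06), without overlap. It kept its call without each library, and the rises of the list numbered 2 without NC 2 or D3 AP+Lac 2 and 4 without D3 AP+Lac 4. With lactate 3.7% of the list rose, against 6.18% of all genes. In D3 AP+PBS, 14 of the 27 were higher than NC, where 10.3% of all genes were. None of the 27 passed between the day 3 arms in limma (2 higher and 1 lower with lactate at an unadjusted p under 0.05). Cxcl9, a chemokine for T cells, had 10.6, 19.9 and 9.35 FPKM in NC and 57.5, 27.3, 116 and 20.5 with lactate, also without overlap, and did not pass (log2 fold change 1.73, adjusted p = 0.16). Of 18 MHC class I and peptide loading genes, Tap1, Tap2, Erap1 and Psmb8 rose. Tap1, a subunit of the peptide transporter, went from 81.02 ± 11.4 to 149 ± 38.1 FPKM (log2 fold change 0.84, adjusted p = 0.023). No gene of the list passed without NC 1, NC 3 or D3 AP+Lac 1 (7, 4 and 6 higher at an unadjusted p under 0.05 in limma), and 2 passed without D3 AP+Lac 3 or 4. With lactate 22.2% of the list rose, against 6.18% of all genes. In D3 AP+PBS, 11 of the 18 were higher than NC, where 10.3% of all genes were. None of the 18 passed between the day 3 arms in limma (2 higher and 3 lower with lactate at an unadjusted p under 0.05). None of 11 MHC class II genes passed in limma (0 higher and 1 lower at an unadjusted p under 0.05). H2-Aa, an alpha chain that presents antigen to helper T cells, had 4415, 5408 and 4605 FPKM in NC and 3023, 4388, 3468 and 3326 with lactate, without overlap (log2 fold change -0.45, adjusted p = 0.18). It had stood at 301 ± 61.5 FPKM at day 0 (SD, n = 5), against which it was higher at day 3 with lactate (log2 fold change 3.56, SE 0.20, adjusted p = 1.6e-12).

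Of 22 glycolysis genes tested, 7 rose (Pfkl, Pfkp, Pgk1, Pgam1, Pkm, Ldha and Pdk1), none fell (0 at an unadjusted p under 0.05), and the median was 0.50. The rises made up 31.8% of the list, against 6.18% of all genes. Ldha, the subunit of lactate dehydrogenase that favours making lactate from pyruvate, stood at 54.8, 70.3 and 50.4 FPKM in NC and 130.2, 86.8, 88.5 and 94.2 with lactate, without overlap (log2 fold change 0.76, SE 0.20, adjusted p = 0.015). Pdk1, the kinase that keeps pyruvate out of mitochondria, had 5.998, 6.12 and 5.57 FPKM in NC and 12.4, 9.27, 8.92 and 10.99 with lactate (log2 fold change 0.71, SE 0.19, adjusted p = 0.015). Of 20 genes of lactate transport and conversion, Ldha and Pdk1 rose (5 genes without D3 AP+Lac 3) and Slc16a7, the transporter MCT2, fell (log2 fold change -0.79, SE 0.20, adjusted p = 0.011). Those shares, 10% higher and 5% lower, are near the 6.18% and 7.5% of all genes. Slc16a1 (MCT1), which carries lactate into or out of cells, had 3.70, 4.71 and 3.43 FPKM in NC and 10.7, 7.71, 4.80 and 9.69 with lactate, without overlap and without passing the test (log2 fold change 0.86, adjusted p = 0.092), and Slc16a3 (MCT4), the exporter of glycolytic cells, overlapped (log2 fold change 0.66, adjusted p = 0.17). Slc16a1 passed without D3 AP+Lac 3 (adjusted p = 0.037) and Slc16a3 without D3 AP+Lac 4 (0.042). No glycolysis gene passed without NC 3 or D3 AP+Lac 1 (9 and 10 higher at an unadjusted p under 0.05 in limma), and 1 passed without NC 1. Ldha lost its call without those same 3 libraries (adjusted p = 0.1, 0.069 and 0.063), and Pdk1 and Slc16a7 without NC 3 (0.075 and 0.097) or D3 AP+Lac 1 (0.059 and 0.057). With the lymphocyte level as a covariate none of the 22 passed (0 at an unadjusted p under 0.05).

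All 34 cell cycle genes tested had a log2 fold change above 0 (median 1.11), 30 had no overlap between the groups (19.3% of all genes were higher without overlap), and 15 rose, against 6.18% of all genes. Kif11, a motor of the mitotic spindle, stood at 7.30, 7.28 and 8.03 FPKM in NC and 23.5, 20.4, 12.5 and 28.5 with lactate (log2 fold change 1.33, SE 0.40, adjusted p = 0.028). Tpx2, a spindle assembly factor, had 7.63, 5.69 and 7.25 FPKM in NC and 24.9, 16.3, 9.44 and 27.2 with lactate (log2 fold change 1.29, SE 0.36, adjusted p = 0.021). In both, D3 AP+Lac 4 was highest and D3 AP+Lac 3 nearest to NC. The calls hung on single libraries. No cell cycle gene passed without NC 2, NC 3, D3 AP+Lac 1 or D3 AP+Lac 4 (25, 24, 23 and 21 higher at an unadjusted p under 0.05 in limma), 1 passed without NC 1, 4 without D3 AP+Lac 2, and 27 without D3 AP+Lac 3. With the lymphocyte level as a covariate none passed (0 at an unadjusted p under 0.05), and with the acinar marker level all 34 did. NC and D3 AP+Lac did not overlap in either level, so these fits cannot separate marker level from group. B and plasma cell markers were 5.11 in D3 AP+Lac 3 and 6.47 in D3 AP+Lac 4, the lowest and highest of the group, and which cells carried the cycle genes was not tested. None of the 34 passed in limma in D3 AP+PBS against NC (0 at an unadjusted p under 0.05) or between the day 3 arms (17 higher with lactate and 0 lower at an unadjusted p under 0.05).

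Of 21 endoplasmic reticulum stress genes tested, 10 rose against NC (Hspa5, Hsp90b1, Pdia4, Dnajb11, Dnajc3, Manf, Creld2, Xbp1, Hyou1 and Edem1) and none fell (0 lower at an unadjusted p under 0.05). The rises made up 47.6% of the list, against 6.18% of all genes. In D3 AP+PBS none passed against NC in limma (2 higher and 1 lower at an unadjusted p under 0.05), and between the day 3 arms 3 of 21 were higher with lactate, where 0.192% of all genes were. Edem1, which sends misfolded glycoproteins to degradation, stood at 44.1, 44.5 and 41.005 FPKM in NC, 74.4, 78.9, 62.7 and 88.3 with lactate and 50.2, 45.6, 52.3 and 50.5 with PBS. Every lactate library was above every NC and PBS library, and the log2 fold changes were 0.79 (SE 0.10, adjusted p = 7.8e-06) against NC and 0.60 (SE 0.10, adjusted p = 0.011) against PBS. Pdia4, a disulfide isomerase, had 67.3, 65.9 and 59.6 in NC, 115, 135, 87.6 and 139 with lactate and 52.2, 54.2, 58.9 and 68.5 with PBS. It too kept lactate above both other groups with log2 fold changes of 0.86 (SE 0.23, adjusted p = 0.015) and 1.00 (SE 0.21, adjusted p = 0.035). The transcription factor Xbp1, which drives this response, was the third of the list to differ between the arms (log2 fold change 0.84, SE 0.17, adjusted p = 0.027). At day 0, 15 of the 21 were higher than NC, where 19.7% of all genes were, and the median of the list was 1.07 against 0.38 with lactate. Pdia4 spanned 140.8 to 263 FPKM at day 0, above every lactate library, and Edem1 spanned 65.7 to 89.2, overlapping lactate. Against NC, the rises numbered 4 without NC 1, 5 without NC 2, 2 without NC 3, 6 without D3 AP+Lac 1 or 2 and 3 without D3 AP+Lac 4, and 1 with the lymphocyte level as a covariate. Pdia4 lost its call against NC without NC 3 (adjusted p = 0.081) or D3 AP+Lac 4 (0.051). Between the arms, Pdia4 and Xbp1 lost their calls without D3 AP+Lac 1 (adjusted p = 0.12 for each), 2 (0.13 and 0.11) or 4 (0.08 and 0.071) or D3 AP+PBS 1 (0.1 and 0.098) or 2 (0.12 and 0.092), and Edem1 without D3 AP+PBS 1 (0.051). Plasma cells run this programme strongly. Mzb1, a chaperone of plasma cells, stood at 46.9, 46.7 and 37.7 FPKM in NC, 189.6, 248, 74.4 and 328 with lactate and 27.1, 56.4, 52.3 and 26.4 with PBS, did not pass against NC (log2 fold change 2.06, adjusted p = 0.085) or PBS (log2 fold change 2.24, adjusted p = 0.14), and ranked the 4 lactate libraries in the same order as Pdia4. Tnfrsf17, another plasma cell marker and the only gene called on the list of B and plasma cells, went the other way, with 5.62, 5.21 and 6.69 FPKM in NC and 2.17, 2.97, 1.38 and 4.21 with lactate (log2 fold change -0.95, adjusted p = 0.029). The part of plasma cells in these rises was not tested.

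Mast cell genes rose from near 0 in NC. Of 7 tested on the list of mast cells, basophils and eosinophils, 5 rose (Cpa3, Mcpt4, Tpsb2, Cma1 and Fcer1a), none fell (0 at an unadjusted p under 0.05), and the median was 2.12. That was 71.4% higher, against 6.18% of all genes. Cpa3, the carboxypeptidase of mast cell granules, stood at 0.350, 0.426 and 0.541 FPKM in NC, 6.31, 7.74, 4.42 and 27.3 with lactate and 0.446, 0.400, 0.975 and 2.22 with PBS. Mcpt4, a chymase, had 0.276, 0.743 and 0.566 in NC, 7.47, 9.22, 4.91 and 23.1 with lactate and 0.577, 0.762, 0.926 and 4.98 with PBS. Fcer1a, the chain of the IgE receptor that binds IgE, had 0, 0.0255 and 0.0259 in NC, 1.56, 2.35, 1.39 and 8.03 with lactate and 0.292, 0.235, 0.189 and 0.234 with PBS. D3 AP+Lac 4 was highest for each of the 3 genes, and all 4 lactate libraries lay above NC.

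Against NC the log2 fold changes were 2.79 (SE 0.46, adjusted p = 0.00014) for Cpa3, 2.80 (SE 0.56, adjusted p = 0.0014) for Mcpt4 and 1.86 (SE 0.34, adjusted p = 0.00058) for Fcer1a. Between the day 3 arms, Cpa3 (log2 fold change 2.39, SE 0.42, adjusted p = 0.014) and Fcer1a (log2 fold change 1.58, SE 0.32, adjusted p = 0.026) differed, and Mcpt4 did not pass (log2 fold change 2.15, adjusted p = 0.058). D3 AP+PBS 4 reached 4.98 FPKM of Mcpt4. Cpa3 lost its difference between the arms without D3 AP+PBS 1 (adjusted p = 0.068) or 2 (0.066), and Fcer1a without D3 AP+Lac 2 (0.092) or 4 (0.059) or D3 AP+PBS 1 (0.07), 2 (0.092) or 4 (0.053). Against NC, 5 or 6 genes of the list rose without any single library, and 3 with the lymphocyte level as a covariate, where Mcpt4 did not pass (adjusted p = 0.063). In D3 AP+PBS none passed against NC in limma (1 higher and 0 lower at an unadjusted p under 0.05). Epx, the peroxidase of eosinophils, was at 0 in every NC and D3 AP+Lac library. The mast cell proteases have close copies in the genome. The 250 bases before the starts of these 3 genes are shown because Cpa3 and Fcer1a differed from both NC and PBS and Mcpt4 rose from NC. They are RefSeq sequences of GRCm38.p6 at chr3:20242182-20242431, chr14:56062311-56062560 and chr1:173227230-173227479, each on the minus strand and written 5′ to 3′. Capitals mark GATAA or its complement TTATC, the letters that GATA factors of mast cells are known to bind.
Cpa3: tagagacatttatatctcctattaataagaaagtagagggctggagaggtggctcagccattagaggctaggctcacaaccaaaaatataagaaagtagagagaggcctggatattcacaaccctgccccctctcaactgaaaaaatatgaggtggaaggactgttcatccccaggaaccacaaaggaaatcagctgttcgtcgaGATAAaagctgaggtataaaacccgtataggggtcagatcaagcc
Mcpt4: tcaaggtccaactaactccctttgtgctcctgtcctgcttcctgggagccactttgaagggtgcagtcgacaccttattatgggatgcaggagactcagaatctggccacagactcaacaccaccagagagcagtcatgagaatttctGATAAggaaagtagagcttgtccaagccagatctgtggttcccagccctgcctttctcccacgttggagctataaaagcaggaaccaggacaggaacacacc
Fcer1a: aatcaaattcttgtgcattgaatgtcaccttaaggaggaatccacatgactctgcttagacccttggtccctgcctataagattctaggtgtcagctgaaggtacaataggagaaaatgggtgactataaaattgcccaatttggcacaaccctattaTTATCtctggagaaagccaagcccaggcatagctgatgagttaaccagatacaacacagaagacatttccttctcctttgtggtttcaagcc
The marked letters begin 45, 102 and 92 bases before the start. Of 8 matched genes of the list, 6 (75%) held GATAA on either strand in the 300-base window, as did 28.43% of 27025 genes. None of the 3 motifs searched contains another.

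Genes of cytotoxic lymphocytes rose in these macrophage libraries. Of 19 T and NK cell markers, 9 rose (Nkg7, Gzma, Gzmb, Prf1, Ncr1, Klrb1c, Il2rb, Eomes and Tbx21), none fell (0 at an unadjusted p under 0.05), and the median was 1.13. That was 47.4% higher, against 6.18% of all genes. In D3 AP+PBS, 16 of the 19 were higher than NC, where 10.3% of all genes were. Gzmb, granzyme B, stood at 2.98, 3.87 and 3.53 FPKM in NC, 61.9, 40.4, 31.2 and 28.5 with lactate and 56.2, 24.4, 36.8 and 46.2 with PBS (log2 fold change 3.16, SE 0.48, adjusted p = 6.2e-05). Gzma, granzyme A, had 10.4, 10.5 and 10.4 in NC, 57.4, 72.7, 70.3 and 46.3 with lactate and 218, 126, 117 and 176 with PBS (log2 fold change 2.43, SE 0.48, adjusted p = 0.0013). Ncr1, the receptor NKp46 of NK cells, rose by 1.80 (adjusted p = 0.00036). The day 3 groups did not overlap with NC for these genes. Without single libraries 6 to 13 rose (6 without NC 3 or D3 AP+Lac 1), and 2 with the lymphocyte marker level, computed from lists that hold these genes, as a covariate. Granzyme genes have close copies.

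B cell genes stood higher without passing in the reported fit. Of 12 tested, none rose in limma (10 higher at an unadjusted p under 0.05) although 11 lay above NC without overlap, as 19.3% of all genes did, 2 rose without D3 AP+Lac 3, and Tnfrsf17, the plasma cell receptor BCMA, fell (log2 fold change -0.95, adjusted p = 0.029). That fall was 8.33% of the list, against 7.5% of all genes lower. Tnfrsf17 lost its call without any single library other than D3 AP+Lac 2 and 4 (adjusted p from 0.054 without NC 2 to 0.13 without NC 3, with 0.075, 0.084 and 0.063 without NC 1, D3 AP+Lac 1 and 3). Among 15 dendritic cell markers, Xcr1, Clec9a, Itgae and Snx22, of the lineage that cross-presents antigen, rose, and Batf3, a factor of the same lineage, and Siglech fell. The shares of this list were 26.7% higher and 13.3% lower, against 6.18% and 7.5% of all genes. Xcr1 stood at 4.48, 3.56 and 5.04 FPKM in NC and 12.5, 13.7, 6.13 and 18.4 with lactate (log2 fold change 1.27, SE 0.28, adjusted p = 0.003, lost with the lymphocyte covariate at 0.12), and Siglech, a marker of plasmacytoid cells, at 6.72, 5.94 and 7.92 in NC and 1.63, 3.97, 1.33 and 2.38 (log2 fold change -1.29, SE 0.27, adjusted p = 0.0021). Of 12 neutrophil markers tested, Mmp9 alone was called (4 were higher and 1 lower at an unadjusted p under 0.05). That was 8.33% lower and none higher, against 7.5% and 6.18% of all genes. The neutrophil protein lipocalin 2 (Lcn2) had 0.928, 2.16 and 2.25 FPKM in NC and 14.8, 7.82, 5.66 and 2.83 with lactate, without overlap (log2 fold change 1.51, adjusted p = 0.051), and passed without D3 AP+Lac 3 (adjusted p = 0.046) or 4 (0.03).

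RNA of acinar enzymes was lower with lactate than in NC. Of 22 acinar markers, 13 fell and 1, the transcription factor Bhlha15, rose (median -1.93). Which cells carried Bhlha15 was not tested. The shares were 59.1% lower and 4.55% higher, against 7.5% and 6.18% of all genes. Cela1, an elastase, stood at 1028, 682 and 612 FPKM in NC and 16.1, 97.5, 39.4 and 191 with lactate (log2 fold change -3.65, SE 0.67, adjusted p = 0.00064), and Pnlip, pancreatic lipase, at 1233, 753 and 703 FPKM in NC and 18.8, 112, 53.6 and 205 with lactate (log2 fold change -3.62, SE 0.71, adjusted p = 0.0011). D3 AP+Lac 4 was highest and D3 AP+Lac 1 lowest of the lactate libraries for both, and the groups did not overlap. The falls numbered 7 without NC 1 or D3 AP+Lac 1, and no acinar marker rose when any single library other than D3 AP+Lac 3 was left out (1 higher at an unadjusted p under 0.05 in limma in each). Of the trypsinogens, Prss2 had 893, 655 and 563 FPKM in NC and 54.8, 279, 161 and 484 with lactate (log2 fold change -1.89, adjusted p = 0.065) and passed without D3 AP+Lac 4 (adjusted p = 0.038), while Prss1 and Prss3 rose. Prss1 stood at 0, 0.130 and 0.331 in NC, 1.41, 10.7, 7.26 and 15.6 with lactate and 5.33, 50.8, 10.01 and 58.95 with PBS (log2 fold change 2.78, adjusted p = 0.0034). Prss3 went from 10.2 ± 3.96 to 63.8 ± 51.7 (log2 fold change 2.15, adjusted p = 0.037), and lost its call without any single library other than D3 AP+Lac 1 and 3 (adjusted p from 0.07 without NC 1 to 0.13 without NC 2 and 0.13 without D3 AP+Lac 4, with 0.09 without NC 3 and 0.089 without D3 AP+Lac 2). Trypsinogen genes are near-identical copies, and how reads were divided among them is not stated.

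Reg3b, a lectin that acinar cells secrete after injury, rose from 11.2, 3.25 and 9.32 FPKM in NC to 16.6, 90.2, 33.5 and 59.3 with lactate, without overlap (log2 fold change 2.40, SE 0.67, adjusted p = 0.02), and stood at 65.9, 719, 203 and 85.8 with PBS. It lost its call without NC 2 (adjusted p = 0.11), NC 3 (0.054), D3 AP+Lac 2 (0.059) or 4 (0.058), and is close in sequence to Reg3a. It was the 1 call among 6 pancreatic injury lectins (16.7%, against 6.18% of all genes higher), of which 3 had a log2 fold change above 0 and 3 below 0. Reg3a and Reg3g stood at 1.90 and 1.51 without passing (adjusted p = 0.1 for each), and Reg1, Reg2 and Reg3d at -0.62, -0.02 and -0.54 (adjusted p = 0.49, 0.98 and 0.55). Of 12 markers of fibroblasts and stellate cells, Col3a1, Lum, Pdgfra, Acta2 and Mmp2 rose and Rgs5, a pericyte gene, fell. The shares of this list were 41.7% higher and 8.33% lower, against 6.18% and 7.5% of all genes. Col3a1, a chain of fibrillar collagen, had 10.9, 11.03 and 13.5 FPKM in NC and 86.01, 109, 34.1 and 61.1 with lactate (log2 fold change 2.40, SE 0.79, adjusted p = 0.044). None of the 12 rose without NC 1, 2 or 3 or D3 AP+Lac 1 (8, 7, 8 and 7 higher at an unadjusted p under 0.05 in limma), and 1 did without D3 AP+Lac 2 or 4. Of the markers tested, 8 endothelial, 7 ductal, 1 islet and 2 mesothelial, 1 was called, against 7.5% of all genes lower and 6.18% higher. It was a fall of Esam (log2 fold change -0.75, adjusted p = 0.049) that was lost when any single library was left out.

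The D3 AP+PBS libraries gave the same day without lactate. Against the same NC libraries, 1236 genes (10.3%) were higher and 1299 (10.9%) lower with PBS. The day 3 arms themselves differed at 45 of 11960 genes (0.376%), 23 higher and 22 lower with lactate. That count was 0 without D3 AP+PBS 1 (855 higher and 837 lower at an unadjusted p under 0.05 in limma), 7, 5, 163 and 19 without D3 AP+Lac 1 to 4, and 5, 118 and 24 without D3 AP+PBS 2 to 4. Of the named genes, 4 differed: Cpa3, Fcer1a, Edem1 and Pdia4. None of the 25 resident genes passed between the arms in limma (2 higher and 0 lower with lactate at an unadjusted p under 0.05). Lyve1 stood at 21.9, 10.7, 11.1 and 16.7 FPKM with PBS, Timd4 at 6.37, 3.99, 5.62 and 5.29 and Cd163 at 42.9, 27.6, 18.8 and 28.2, values that overlapped with those of lactate. Retnla had 304, 356, 96.8 and 462 FPKM with PBS, a range that also overlapped with lactate (log2 fold change -0.72, adjusted p = 0.31), and Arg1 had 30.2, 5.58, 4.93 and 20.4 (log2 fold change 1.90, SE 0.75, adjusted p = 0.19).

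**Figure D5:**
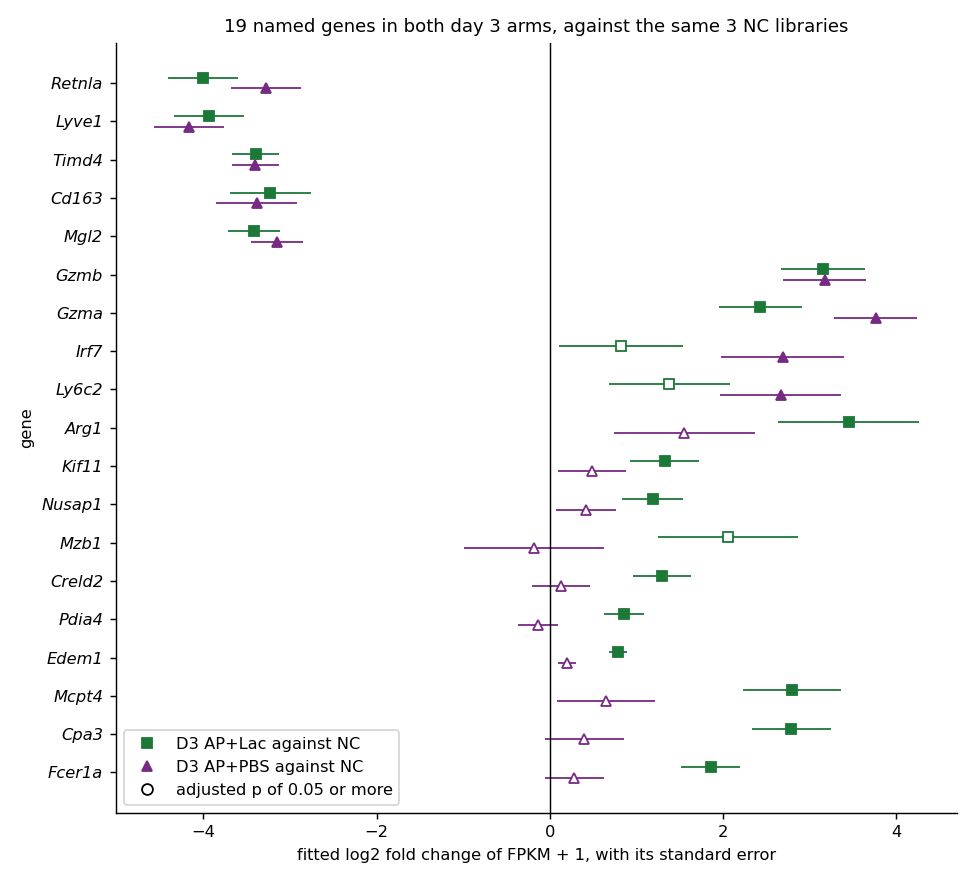
Log2 fold changes of FPKM + 1 with their standard errors on the x axis for 19 named genes in D3 AP+Lac and D3 AP+PBS, each against the same 3 NC libraries. The genes were picked from the named genes after their values were seen, filled symbols passed an adjusted p of 0.05, and only Cpa3, Fcer1a, Edem1 and Pdia4 of those shown differed between the arms when tested.

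The day 0 libraries gave the level before recovery. Of the 25 resident genes, 15 had risen from day 0 to day 3 with lactate and 5 had fallen, while of all genes 67% differed between these groups, 48.2% upward and 18.8% downward. At day 0 itself, 21 of 25 resident genes were lower than NC and 1 was higher, where 41.4% of all genes were lower and 19.7% higher, with a median of -2.81, and at day 3 with lactate the median was -1.64. Timd4 held 0.161 to 0.652 FPKM at day 0, Mgl2 0.821 to 1.27 and Cd209f 0.461 to 1.09, all below the lowest D3 AP+Lac library, and each rose from day 0 to day 3, with log2 fold changes of 2.14 (adjusted p = 4.9e-08), 3.66 (adjusted p = 5.1e-11) and 2.46 (adjusted p = 9.7e-07). Lyve1 had 5.42 to 16.3 FPKM at day 0 and 9.20 to 25.97 at day 3 (log2 fold change 0.93, adjusted p = 0.024). Mrc1 and Cd163 had 112 ± 48.1 and 20.1 ± 12.9 FPKM at day 0, against 141 ± 55.1 and 32.9 ± 10.8 at day 3 with lactate (adjusted p = 0.27 and 0.073). Arg1, Spp1 and Chil3, which had been high at day 0, fell by 3.79, 6.13 and 4.39 on the log2 scale by day 3 with lactate (adjusted p = 6.2e-05, 2.3e-10 and 5.1e-10).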

How the data were processed

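RNA-seq libraries of sorted pancreatic macrophages were made with the RNeasy Micro kit and, from 10 ng of RNA, the VAHTS Universal V6 kit, per the labels' protocols. Values were deposited by the authors as FPKM per gene in 1 table of 25301 genes, 18017 of them protein-coding and none mitochondrial. Per the submitters' processing notes fastp and R 3.2.0 were used. No aligner, counter, strand setting or genome build is named (not given in the sources used here). Low FPKM values were whole multiples of 1 fragment (tolerance 0.0001), which gave depths of 33273303 to 41060490 fragments over the 28 libraries. No pair of libraries of the same group agreed within sampling noise.

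Genes with at least 1 FPKM in at least 3 libraries (11960) were fitted as log2(FPKM + 1), pseudocount 1, with limma 3.58.1 (trend and robust, R 4.3.3) over all 28 libraries in 6 groups, and p-values were adjusted by Benjamini-Hochberg with a threshold of 0.05. A fold change on this scale understates the change of low genes. Tables and figures used Python 3.11.15, numpy 2.4.6, pandas 2.3.3 and matplotlib 3.10.9, and the fit was tested on simulated data. Groups came from the labels, and the comparisons were D3 AP+Lac against NC, D3 AP+PBS and D0, and D3 AP+PBS and D0 against NC.

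Named genes were, of the called genes that averaged 5 FPKM or more in either group, the 12 highest and 12 lowest by log2 fold change, excluding gene models, the up to 4 genes with the smallest p of each of 33 lists (13 of cell markers, 20 of pathways), and a fixed set of macrophage and pancreas genes. The comparison and lists were chosen with earlier results of these data known. The motifs TTCNNNNGAA and GATAA, the genes of the plots by group and by arm, and Ifi27l2a, Xbp1 and Mzb1 as single genes described between the arms, were chosen after values were seen. Alternatives were another pseudocount, filter or scaling, removal or adjustment of acinar and lymphocyte markers, a replicate block, a fit to the compared libraries, and leaving libraries out. The day 1 libraries entered the fit and were not compared here. Results of some genes are not reported here.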

Additional observations from a re-analysis of the deposited data

Results flagged for a closer look

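Each of 153 genes and marker lists was tested for 1 of the 4 D3 AP+Lac libraries lying far from the others. The rule flagged 3. Many of the genes were picked by their results in these same libraries, so this count cannot be set against a chance rate. Saa3 was at 40.0 FPKM in D3 AP+Lac 4 and between 301 and 418 in the other lactate libraries. Mmp7, a matrix metalloproteinase, was at 0.706 FPKM in D3 AP+Lac 3 and between 0.332 and 0.386 in the others. Ins2, an insulin gene, was at 0 in D3 AP+Lac 3 and between 0.362 and 0.369 in the others.

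Named genes that differed between the day 3 arms when that difference was tested were 4, each higher with lactate (limma). The log2 fold change of lactate over PBS was 2.39 for Cpa3 (adjusted p = 0.014), 1.58 for Fcer1a (adjusted p = 0.026), 0.60 for Edem1 (adjusted p = 0.011) and 1.00 for Pdia4 (adjusted p = 0.035). In Cpa3, Fcer1a, Edem1 and Pdia4 every lactate library lay above every PBS library. These genes were picked by the test on the same libraries, so this separation is no further support.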

How the results depend on the processing

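Of the 89 named genes called in D3 AP+Lac against NC, 35 passed under all 18 alternatives, 54 missed the threshold under at least 1, and none changed sign. The lymphocyte marker covariate ended 46 of these calls, leaving out D3 AP+Lac 1 and 4 together 45, leaving out NC 3 40 and leaving out D3 AP+Lac 3 5. The causes were not tested. NC and D3 AP+Lac did not overlap in the lymphocyte or acinar marker level. A fit with either level as a covariate cannot separate it from the group. Genes higher numbered 1736 with the acinar marker covariate, 172 with the lymphocyte marker covariate, 1218 with the replicate block and 82 without D3 AP+Lac 1 and 4, and 145 to 1574 without single libraries. Genes lower numbered 572 with a minimum of 5 FPKM, fewer genes being tested, 357 without D3 AP+Lac 1 and 4, and 468 to 1049 without single libraries. Of calls, 45.2% were higher in the reported fit, 67.4% with the acinar covariate, 21.2% with the lymphocyte covariate, 31.7% with median-ratio scaling, 34% without a filter and 55.7% with the block.

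Genes that differed between the day 3 arms numbered 11 with a pseudocount of 0.1, 104 without a filter, 21 with a minimum of 5 FPKM, 213 with quantile normalization, 77 with median-ratio scaling, 606 and 358 with the acinar and lymphocyte covariates, 122 with the replicate block, 8 in the fit to the compared libraries, 0 without D3 AP+Lac 1 and 4 (707 higher and 745 lower at an unadjusted p under 0.05 in limma) and 0 to 163 without single libraries.

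Replicate numbers 1 to 3 are shared by the groups, but same-numbered libraries did not pair. Their deviations from the mean of NC 1 to 3 and the mean of D3 AP+Lac 1 to 3 correlated at 0.15, -0.23 and 0.098. NC 1 correlated best with its own number (0.15), NC 2 with D3 AP+Lac 1 (0.11) and NC 3 with D3 AP+Lac 2 (0.19). The block gave 1218 genes higher and 970 lower.

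Log2 fold changes that changed sign belonged to genes that had not passed. With the acinar covariate they were 0.11 for Plvap, 0.073 for Tie1, -0.13 for Zbp1, -0.012 for Ifi205, 1.17 for Reg1, -0.62 for Chil3, -0.029 for Ly6c2, -0.084 for Cxcl9, -0.57 for Irf7 and 0.15 for Prss2. With the lymphocyte covariate they were -0.065 for Msln, -0.19 for Cr2, -0.45 for Fcer2a, -0.062 for Hdac1, 0.18 for Cd68, -0.16 for Il1b and -0.16 for Slc16a1. Msln had -0.058 with quantile normalization, -0.019 with median-ratio scaling, -0.0156 with the block, -0.044 without D3 AP+Lac 1 and 4 and -0.15 to 0.23 without single libraries. Trem2 had -0.0398 with quantile normalization, -0.048 with median-ratio scaling and -0.18 to 0.38 without single libraries, and Chil3 had -0.10 to 0.54 without single libraries.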

Other observations

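A pair of genes outside the rule for named genes had low adjusted p-values and were chosen after their values were seen. Lilra5, an activating receptor of the leukocyte immunoglobulin-like family, stood at 30.8, 21.1 and 42.6 FPKM in NC and at 1.92, 4.86, 3.39 and 3.93 in D3 AP+Lac, a log2 fold change of -2.83 (limma, adjusted p = 5.8e-10). Hr, a nuclear corepressor best known from hair growth, stood at 14.8, 15.4 and 10.96 FPKM in NC and at 1.69, 0.956, 1.63 and 1.18 with lactate, a log2 fold change of -2.64 (adjusted p = 5.5e-12). The groups did not overlap for either gene.

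Beyond the named genes, the 23 higher with lactate than with PBS at day 3 included Txndc11, Edem2 and Fut8. Txndc11, a thioredoxin-like protein of the endoplasmic reticulum, had 11.8, 12.2 and 11.4 FPKM in NC, 29.3, 25.8, 16.7 and 35.3 with lactate and 11.4, 10.1, 15.3 and 9.75 with PBS, and lactate lay above both other groups in every library (1.11 against PBS, SE 0.24, adjusted p = 0.035). Edem2, which trims misfolded glycoproteins, had 50.3, 46.7, 29.2 and 55.5 FPKM with lactate and 26.3, 30.03, 30.8 and 28.1 with PBS (0.60, adjusted p = 0.035), and Fut8, the core fucosyltransferase, 18.97, 18.8, 11.2 and 20.04 and 9.16, 8.86, 10.004 and 8.47 (0.82, adjusted p = 0.011). Of the 19 T and NK cell markers, Klrd1 alone was among the 22 genes lower with lactate (0.184% of all genes), and none was higher in limma (0 at an unadjusted p under 0.05). Klrd1 (CD94), a receptor chain of NK cells, had 15.8, 13.98 and 12.8 FPKM in NC, 18.9, 23.2, 23.7 and 18.3 with lactate and 42.5, 47.01, 34.04 and 37.8 with PBS (-0.91, adjusted p = 0.039), and the Ly49 genes Klra1, Klra3, Klra6 and Klra17, which are close copies, were also lower. These genes were chosen after their values were seen, and no gene passed between the arms without D3 AP+PBS 1 (855 higher and 837 lower at an unadjusted p under 0.05 in limma).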
